A study of Mus musculus with 5 samples.

Results

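Oligodendrocyte precursor cells (OPCs) of the adult mouse corpus callosum were described here across all measured genes. They were the cells that the study's deposited annotation labels OPC, and they numbered 83 of 2853 cells. The other 2770 cells carried 11 further labels, which run from committed precursors and newly formed oligodendrocytes (COP/NFOL, 19 cells) through myelin-forming stages (MFOL1, 274 cells) to mature oligodendrocytes (MOL). All cells came from the corpus callosum, a white matter tract, of mice aged P60, of both sexes and on a mixed CBA and C57BL/6 background, that carried Emx1::Cre together with Sox10::Cre-LoxP-GFP-STOP-TdTom. In this line the Sox10 reporter marks the oligodendrocyte (OL) lineage, and Emx1::Cre, active in dorsal forebrain progenitors, switches the reporter from GFP to TdTom, so that TdTom+ cells are of dorsal and GFP+ cells of ventral origin. Tissue of 2 mice was pooled, the reporter-positive cells were sorted, and 1 droplet-based 3′ library was made per origin. Spinal cord, the source of 3 further samples, was not analysed here.

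OPCs are the dividing glial progenitors from which new OLs arise throughout life. They depend on PDGF signalling through the receptor encoded by Pdgfra, build a proteoglycan-rich surface and matrix that includes NG2 (Cspg4), and receive synaptic input from neurons. When they differentiate they leave the cell cycle, pass through a committed stage marked by Gpr17, and then switch on the genes of the myelin sheath.

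The TdTom+ library held 48 OPCs and the GFP+ library 35. This was 2.52% of the TdTom+ cells (exact Clopper-Pearson interval at 95%, 1.87% to 3.33%) and 3.68% of the GFP+ cells (2.57% to 5.08%). The intervals overlapped. With 1 library per origin there was no replicate, so no test between origins was made, and all intervals below cover counting error only. Unique molecular identifiers (UMIs), each standing for 1 captured transcript, were summed over cells and scaled to 1000000 UMIs (CPM). The OPCs held 265478 UMIs, with a median per cell of 2909 for TdTom+ and 2837 for GFP+ OPCs, so that 1 UMI over all OPCs was worth 3.77 CPM. The other cells had a median of 3342.5 UMIs and COP/NFOL cells one of 8215. One cell barcode occurred in both libraries, and neither of its cells was an OPC.

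The 5 OPC markers followed the label. Because the label came from these cells' own expression, the markers describe it and are no independent check of it. Each of the 83 OPCs had UMIs of 3 or more of the 5 markers, and 48 had all 5. Among the 2770 other cells, 2553 had none and 10 had 3 or more, of which 8 were labelled COP/NFOL and 2 MFOL2. The measured markers of microglia (7 of 9 listed), endothelial cells (4 of 5), red blood cells (2 of 3), ependymal cells (1 of 5) and pericytes (1 of 4, Pdgfrb) had 0 UMIs in every OPC. The 5 listed markers of vascular leptomeningeal cells, which also express Pdgfra, were not analysed here, so OPCs were not checked against that cell type. The neuronal list summed to 0 to 3 UMIs per OPC (6 of its 8 genes measured), with at most 2 in a GFP+ cell. The astrocyte list summed to 0 to 9 UMIs per OPC, and most of these came from the glutamate transporters Slc1a2 and Slc1a3, while 2 of its 7 measured genes, the defining genes Gfap and Gja1, had 0 UMIs. It summed to 930 CPM in OPCs and 189 CPM in the other cells, and 11 of the 83 OPCs had UMIs of 3 or more of its genes. Its part in the results was not tested.

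Pdgfra, the PDGF receptor that drives OPC division and survival, stood at 1877 CPM in TdTom+ OPCs (291 UMIs) and 1929 CPM in GFP+ OPCs (213 UMIs). In the other cells together it stood at 2.78 CPM, a level 684-fold lower (470-fold to 1032-fold). COP/NFOL cells, the next stage, had 7.21 CPM of Pdgfra, from a single UMI. The highest level outside OPCs was 49.9 CPM in the MFOL2 label, from 11 UMIs, all in TdTom+ cells. Of the 83 OPCs, 82 had a Pdgfra UMI, with a median of 6 and a highest count of 18.

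Cspg5 (neuroglycan C) had 3599 CPM in TdTom+ and 3614 CPM in GFP+ OPCs, and Ptprz1, a receptor-type phosphatase that is itself a chondroitin sulphate proteoglycan, had 3031 and 2699 CPM. Both were found in all 83 OPCs, with 2 to 40 UMIs of Cspg5 and 3 to 23 UMIs of Ptprz1 per cell. They parted at the COP/NFOL stage, where Cspg5 was at 21.6 CPM and Ptprz1 at 360 CPM. Vcan, encoding the matrix proteoglycan versican, was at 1096 and 1177 CPM in the TdTom+ and GFP+ OPCs. In the COP/NFOL cells of these libraries it was at 338 CPM (26 UMIs) and 890 CPM (55 UMIs), and the interval of the latter was 670 to 1158 CPM. Cspg4 was at 355 and 308 CPM in the OPCs, at 36.0 CPM in COP/NFOL cells and at 1.44 CPM in all cells other than OPCs together, COP/NFOL included.

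After thinning each cell to 2000 UMIs, which left out 6 of the 83 OPCs, Cspg5 and Ptprz1 were detected in all 77 OPCs, Pdgfra in 96.1% (89.0% to 99.2%), Vcan in 89.6% (80.6% to 95.4%) and Cspg4 in 44.2% (32.8% to 55.9%). Without thinning the last 3 shares were 98.8%, 92.8% and 61.4%. In MOL5/6 cells, a broader deposited label for mature OLs, which should lack these genes, the thinned shares were 1.56% for Cspg5, 0.575% for Ptprz1, 0.411% for Pdgfra and 0 of 1217 cells for Vcan and Cspg4, which, taking 3 cells as the limit, allows a share of cells with a UMI of up to 0.247%. Before thinning the median depth was 2895 UMIs in OPCs and 3241.5 UMIs in the mature labels. Detection of Cspg4 moved with depth and its absence from a cell was not read as absence of the transcript.

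**Figure D1:**
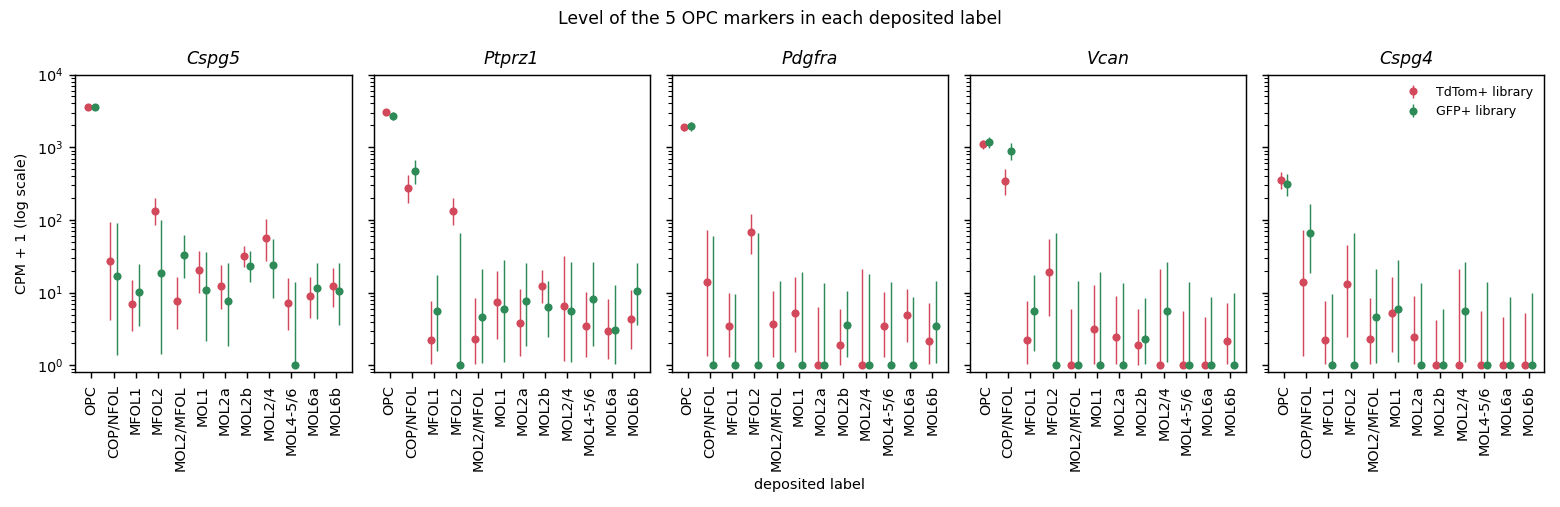
CPM + 1 (log scale) of the 5 OPC markers in each of the 12 deposited labels, with TdTom+ and GFP+ cells as separate points and exact Poisson intervals at 95% as bars. The OPC points of both libraries lie above those of every other label, and Ptprz1 and Vcan are the markers with the highest level in COP/NFOL cells.

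The label was made from these cells' own expression, so the contrast of OPCs with the other cells is given as a description and no test was run on it. Of 11733 genes, 2537 reached 100 CPM in OPCs or in the other cells. On the scale of log2(CPM + 1), 801 of them (31.6%) were at least 2-fold higher in OPCs and 418 (16.5%) at least 2-fold lower. Both sides were scaled to the same total, and the median over the 2537 genes was 0.46, a value that moved with the filter, to 0.16 at 200 CPM and 0.57 with none. Relative to the median of 0.46, 564 genes (22.2%) were higher and 573 (22.6%) lower. The filter itself set part of these counts and of the median, since 1006 genes reached 100 CPM in OPCs alone and 436 in the other cells alone, and such genes could differ in 1 direction only. Of the 1095 genes that reached it in both, 104 were at least 2-fold higher and 99 at least 2-fold lower. In both libraries taken singly, 692 of the 801 higher genes and 366 of the 418 lower genes passed 2-fold in the same direction.

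Among the 15 genes with the highest ratio of those at 100 CPM or more in OPCs were Pdgfra, Meg3, Cacng4, Cdo1, C1ql1, Nxph1, Tmem100, Ednrb, Ptprz1, Nnat, Emid1, Top2a, Pid1 and Cspg5. Meg3, a maternally expressed long noncoding RNA, had 819 CPM in TdTom+ and 1042 CPM in GFP+ OPCs and 1.63 CPM in the other cells. Cacng4, an auxiliary subunit of AMPA receptors, had 851 and 1023 CPM against 1.91 CPM. C1ql1, a secreted C1q-like protein, had 1883 and 1712 CPM against 5.74 CPM. Cdo1, the cysteine dioxygenase of taurine synthesis, had 509 and 371 CPM against 0.574 CPM and was found in 49 of the 83 OPCs. Ednrb, an endothelin receptor, had 503 and 562 CPM and no UMI in COP/NFOL or MFOL1 cells. Top2a differed from the rest of these genes in how it was spread, since its 63 UMIs came from 6 OPCs.

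**Figure D2:**
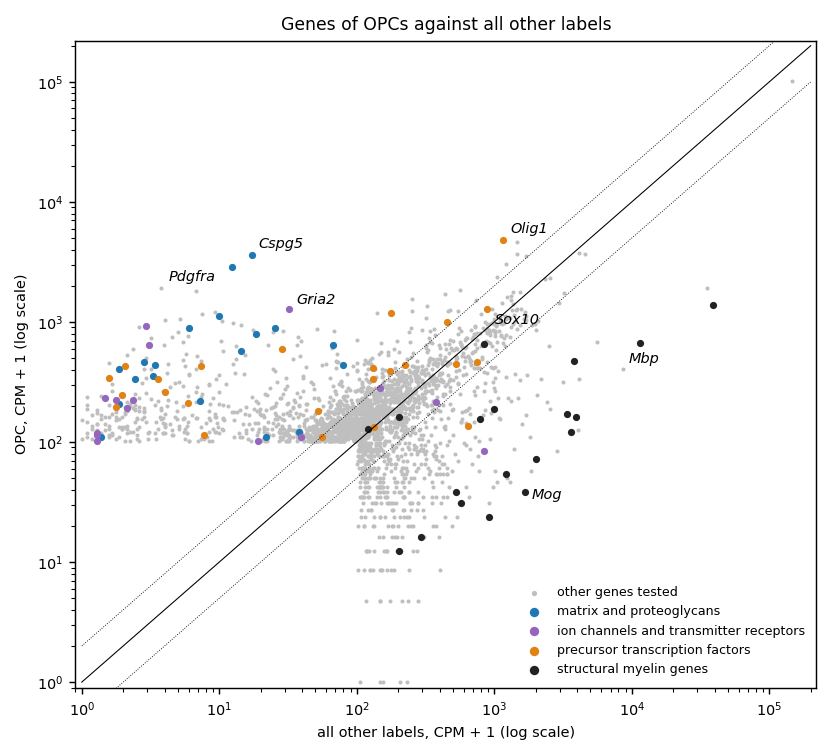
CPM + 1 of the 2537 tested genes in OPCs (vertical) against all other labels (horizontal), both on log scales, with equal levels as the solid line and 2-fold as dotted lines. Genes of the matrix, channel and precursor transcription factor lists spread to the upper left, and the structural myelin genes lie near or below the line of equal levels.

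Of the matrix and proteoglycan list 32 genes were measured, and 13 of them did not reach the filter. The 19 that did reached it in OPCs alone, so that their direction was fixed by the filter. All 19 were at least 2-fold higher there, beside 31.6% of all genes tested. The summed level of the list was 15184 CPM in OPCs, 5471 CPM in COP/NFOL cells and 330 CPM in MFOL1 cells. The hyaluronan-binding lecticans were prominent, with Bcan at 795 CPM and Ncan at 350 CPM beside Vcan. Bcan and the lectican partner Tnr (tenascin-R) were at 959 and 1557 CPM in COP/NFOL cells, whereas Ncan was at 7.21 CPM there, a single UMI. Enzymes of glycosaminoglycan chains were in the same list. Xylt1, which starts the chain, had 437 CPM in OPCs against 2.39 CPM in the other cells, and Chst11, a chondroitin sulphotransferase, had 207 CPM against 0.861 CPM. Serpine2, a secreted protease inhibitor, had 884 and 897 CPM in the OPCs of the TdTom+ and GFP+ libraries and 115 CPM in COP/NFOL cells.

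Of 7 tested growth factor receptors, 4 were higher and 2 lower, beside 31.6% and 16.5% of all genes, and 1 fewer was higher relative to the median of all genes. Of the 7, 5 reached the filter in OPCs alone and 2 in the other cells alone, so that each could differ in 1 direction only. Beside Pdgfra, the neurotrophin receptors Ntrk2 and Ntrk3 had 493 and 188 CPM in OPCs and 12.2 and 0.766 CPM in the other cells. Fgfr2, by contrast, had 30.1 CPM in OPCs and 405 CPM in the other cells, and the collagen receptor Ddr1 had 52.7 and 214 CPM. Egfr, Erbb2 and Met were not analysed here.

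Genes that respond to or feed back on MAPK signalling, the pathway downstream of such receptors, were higher in 7 of 9 tested cases and lower in 1, beside 31.6% and 16.5% of all genes, with 8 of the 9 past the filter in OPCs alone. Ccnd1 (cyclin D1) had 993 and 1032 CPM in TdTom+ and GFP+ OPCs and was detected in 72 of the 83 cells, against 9.47 CPM in the other cells and 7.21 CPM in COP/NFOL cells. Etv4, a PEA3-family factor, had 139 CPM against 0.287 CPM, the phosphatase Dusp6 had 124 CPM against 0.479 CPM, and the feedback inhibitor Spry1 had 151 CPM against 9.86 CPM. None of Etv4, Etv5 and Dusp6 had a UMI in COP/NFOL cells. Etv1 was the lower member, at 136 CPM in OPCs against 639 CPM in the other cells, and it stood at 7.21 CPM in COP/NFOL cells.

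Among precursor transcription factors 17 of 24 tested genes were higher and 1, Etv1, was lower (31.6% and 16.5% of all genes). Relative to the median of all genes the counts were 14 and 2 (22.2% and 22.6% of all genes). The filter was reached by 12 of them in OPCs alone, and of the other 12, past it in both, 6 were higher and 1 lower. Olig1 was at 4830 and 4700 CPM in the TdTom+ and GFP+ OPCs against 1160 CPM in the other cells, and Olig2 at 1245 and 1123 CPM against 177 CPM. The group split by how sharply its members separated OPCs from later stages. Hes5 and Hes1, the Notch effectors, were at 426 and 245 CPM in OPCs and at 7.21 CPM each in COP/NFOL cells. Sox6, Sox4 and Sox2 remained in COP/NFOL cells, at 411, 1398 and 642 CPM, compared with 429, 595 and 331 CPM in OPCs. Sox10, which marks the whole lineage, differed little, with 1269 CPM in OPCs and 889 CPM in the other cells.

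Of 9 tested factors of differentiation, 6 were lower and 1 higher, beside 16.5% and 31.6% of all genes. The filter fixed the direction of most of them, since 5 reached it in the other cells alone and 1 in OPCs alone, and of the 3 past it in both, 1 was lower and 0 were higher. Myrf, the activator of myelin genes, had 14 UMIs in the OPCs (52.7 CPM) and stood at 396 CPM in COP/NFOL cells and 332 CPM in all other cells. Nkx6-2 had 45.2 CPM in OPCs against 1044 CPM, and Carhsp1 67.8 CPM against 546 CPM. Prrx1, a homeobox factor, was the higher one, at 154 CPM against 0.383 CPM. Tcf7l2, a Wnt effector below the filter, was at 79.1 CPM in OPCs, at 1081 CPM in COP/NFOL cells and at 57.4 CPM in the other cells.

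In the list of Notch, Wnt and hedgehog genes 5 of 26 measured genes passed the filter, of which Hes5, Hes1, Gas1 and Notch1 were higher and the Wnt inhibitor Nkd1 lower, each past the filter on its higher side alone (31.6% and 16.5% of all genes were higher and lower). Notch1 had 154 CPM in OPCs against 2.78 CPM and no UMI in COP/NFOL cells. Gas1, a hedgehog co-receptor, had 271 CPM in TdTom+ OPCs (42 UMIs) and 118 CPM in GFP+ OPCs (13 UMIs), a log2 ratio of 1.20 (0.28 to 2.22), but it was below the level needed for the comparison of libraries. Dll3, a Notch ligand below the filter, had 11 UMIs in 10 OPCs and none in any other cell.

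Ion channels and transmitter receptors were measured for 48 genes, of which 15 passed the filter. Of these, 12 were higher and 1, the potassium channel gene Kcna1, was lower, compared with 31.6% and 16.5% of all genes, and 12 of the 15 reached the filter in OPCs alone. Adora1 and Kcnj10 lay within 2-fold, and Kcnj10, the potassium channel Kir4.1, passed 2-fold downward once the median of all genes was taken off. Gria2, the AMPA receptor subunit that limits calcium entry, had 1303 and 1250 CPM in TdTom+ and GFP+ OPCs and was found in 78 of 83 cells. It was at 829 CPM in COP/NFOL cells and 18.1 CPM in mature cells. Gria3 and Gria4 had 222 and 109 CPM in OPCs, the metabotropic receptor Grm5 had 222 CPM, and the NMDA receptor subunit Grin3a had 192 CPM. Among potassium channel genes Kcnk2 had 234 CPM against 0.479 CPM, and Kcnip3, which binds Kv4 channels, had 644 CPM against 2.11 CPM. Voltage-gated sodium channels were below the filter, with 26 UMIs of Scn3a and 25 of Scn2a1 in all OPCs.

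Adhesion and guidance genes were measured for all 37 members of the list, and 21 of 27 tested were higher and 3 lower, beside 31.6% and 16.5% of all genes. Of the 27, 19 reached the filter in OPCs alone and 4 in the other cells alone, and of the 4 past it in both, 2 were higher and 0 lower. The neurexin gene Nrxn2 had 1179 CPM in OPCs, and Cntn1 (contactin) and Ntm (neurotrimin) had 972 and 765 CPM. Their levels at the next stage differed. Opcml was at 697 CPM in OPCs and 1254 CPM in COP/NFOL cells, while Ntm was at 765 and 72.1 CPM. The lower members were Efnb3, at 56.5 CPM against 769 CPM, Ephb1, at 15.1 CPM against 188 CPM, and the netrin receptor Unc5b, at 30.1 CPM against 250 CPM.

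Cytoskeletal and immature cell genes were higher in 18 of 26 tested cases and lower in 4 (31.6% and 16.5% of all genes), and relative to the median of all genes the counts were 16 and 7 (22.2% and 22.6%). Of the 10 members past the filter on both sides, 4 were higher and 2 lower. The fatty acid binding protein Fabp7 had 825 CPM in OPCs against 4.02 CPM, Nnat (neuronatin) 727 CPM against 2.20 CPM, and Marcks 1586 CPM against 44.5 CPM. Marcks was higher still in COP/NFOL cells, at 2941 CPM. The alpha tubulin gene Tuba1a peaked there too, at 8268 CPM, with 1092 CPM in OPCs and 547 CPM in MFOL1 cells. Dcx, known as a gene of migrating neuroblasts, had 32 UMIs in 24 OPCs (121 CPM) against 1.24 CPM. Stmn1, a regulator of microtubules, had the lowest ratio of the list, with 245 CPM in OPCs and 2029 CPM in the other cells.

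**Figure D3:**
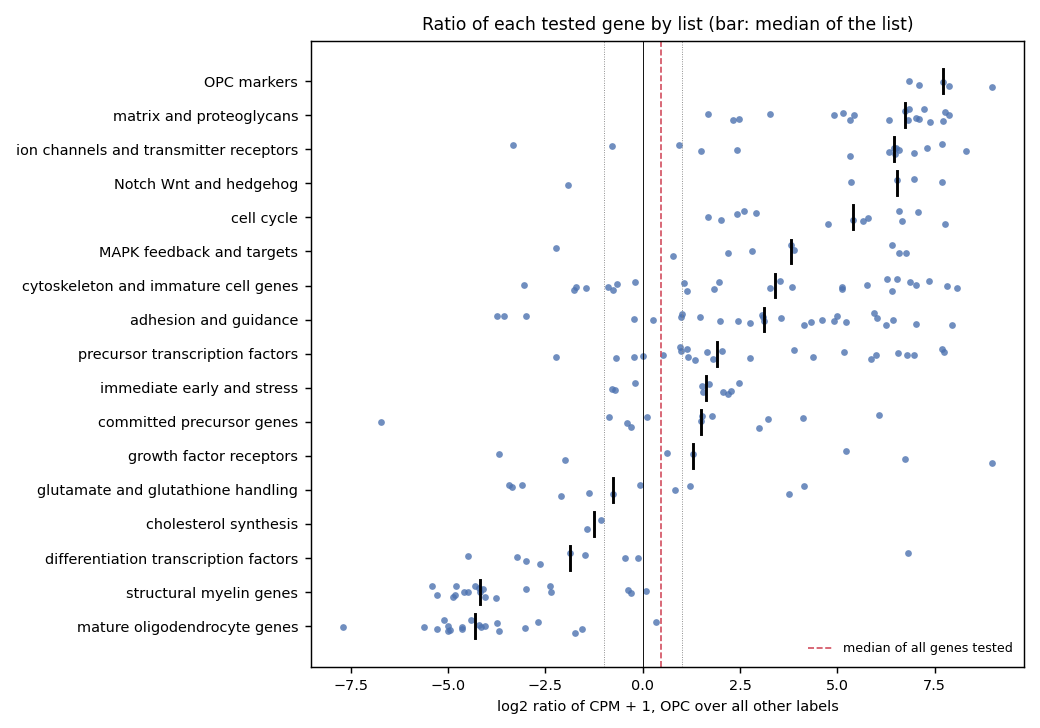
Log2 ratio of CPM + 1 in OPCs over all other labels for each tested gene (points) of 17 lists, with the median of each list as a black bar, the median of all 2537 tested genes (0.46) as a dashed line and 2-fold as dotted lines. The tested matrix genes, past the filter in OPCs alone, are all above 2-fold, and the structural myelin and mature oligodendrocyte lists have no member above it.

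Structural myelin genes made up 0.455% of the UMIs of OPCs and 7.52% of those of the other cells. Of 19 tested, 16 were at least 2-fold lower in OPCs and none was higher (16.5% and 31.6% of all genes), with a median log2 ratio of -4.19. Of these, 8 reached the filter in the other cells alone, and of the 11 past it in both, 8 were lower. Mbp, the myelin basic protein gene, had 574 CPM in TdTom+ and 797 CPM in GFP+ OPCs against 11431 CPM in the other cells, and was found in 68 of 83 OPCs. The share of the mature level that OPCs held was not the same for all genes of the list. It was 2.40% for Mog, 2.66% for Opalin, 5.77% for Mbp, 13.5% for Cnp and 19.9% for Ugt8a. The Mog value rested on 10 UMIs, 5 of them from a single myelin-rich GFP+ cell, without which Mog was at 19.3 CPM in place of 37.7 CPM. At the upper end were Gjc3 (79.3%), Bcas1 (86.3%) and Omg (104%), which lay within 2-fold of the other cells.

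Mature oligodendrocyte genes were lower in 19 of 20 tested cases (16.5% of all genes), with 12 past the filter in the other cells alone and 7 of the remaining 8 lower, and S100b was the exception at 919 CPM against 729 CPM. The 10 genes with the lowest ratio among those at 200 CPM or more in the other cells were Tmem125, Klk6, Prr5l, Spock3, Lpar1, Car14, Mog, Opalin, Trf and Car2. Tmem125 and Klk6, a secreted kallikrein protease, had 0 UMIs in the OPCs and were at least 20.5-fold and 18.3-fold higher in the other cells, taking 3 UMIs over all OPCs as the limit. Trf (transferrin) had 12 UMIs in TdTom+ and 10 in GFP+ OPCs, 34.6-fold below the other cells, and Car2 (carbonic anhydrase 2) had 23 and 10 UMIs, 32.5-fold below. Klk6 was detected in 0 of 83 OPCs, which by the same limit of 3 cells allows a share with a UMI of up to 3.61%, and in 18.9% of mature cells. Of 23 cholesterol synthesis genes, which supply the main lipid of myelin, 2 passed the filter, Hmgcs1 and Msmo1. Both did so in the other cells alone, which fixed their direction as lower. Hmgcs1 had a log2 ratio of OPCs over the other cells of -0.96 in the TdTom+ and -2.59 in the GFP+ library, and Msmo1 of -0.72 and -1.72, so that neither passed 2-fold among TdTom+ cells. The summed level of the list was 629 CPM in OPCs, 2343 CPM in COP/NFOL cells and 910 CPM in mature cells.

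COP/NFOL is the next stage after OPC. Of the 801 genes higher in OPCs, 359 (44.8%) had a COP/NFOL level over 1/2 of the OPC level, 150 (18.7%) had one under 1/10, and 307 (38.3%) were under 1/10 in MFOL1 cells. These 801 genes were chosen against a pool that held COP/NFOL and MFOL1 cells, so lower levels there follow in part from the choice. Over all 2537 genes the shares were 74.9%, 6.98% and 12.1%. The committed precursor list summed to 4388 CPM in OPCs and 25135 CPM in COP/NFOL cells. The cells of the labels did not overlap, with 1453 to 11262 CPM in OPCs and 12773 to 47985 CPM in COP/NFOL cells. Since the labels were made from this same expression, that separation follows in part from the labelling. Relative to all other cells, 7 of the 12 tested genes of the list were higher in OPCs and 1 lower, where 31.6% and 16.5% of all genes were. The filter was passed by 6 of the 12 in OPCs alone and by 2 in the other cells alone, and of the 4 past it in both, 1 was higher and 0 lower.

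Members of that list came on at different points. Neu4, a sialidase, was at 693 CPM in OPCs and 620 CPM in COP/NFOL cells. Gpr17, the receptor that marks committed cells, was at 716 CPM in TdTom+ and 543 CPM in GFP+ OPCs and at 2256 CPM in COP/NFOL cells. It was found in 57 of 83 OPCs, or 59.7% (47.9% to 70.8%) after thinning, compared with 0.822% of thinned MOL5/6 cells. Bmp4 had 17 UMIs in 15 OPCs (64.0 CPM) and stood at 706 CPM in COP/NFOL cells. Fyn, a kinase of myelin initiation, stood at 241 CPM in OPCs and 2955 CPM in COP/NFOL cells, and it was higher in OPCs than in the other cells pooled but lower (log2 ratio -0.36) when the 11 other labels were given equal weight. Enpp6, Rassf10 and Prom1 had 0 UMIs in the OPCs, which allows up to 11.3 CPM each, and stood at 908, 281 and 238 CPM in COP/NFOL cells.

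Of 41 measured cell cycle genes 13 passed the filter, each through OPCs alone, so that their direction was fixed by it, and for many of them the UMIs came from few cells. Of 17 genes of S to M phase taken from that list after their values were seen, Top2a, Mki67, Cdk1 and the cyclins Ccna2, Ccnb1 and Ccnb2 among them, 4 OPCs had 11 to 17 and no other OPC had more than 3. These 4 cells, 2 in each library, held 338 of the 359 UMIs of the 17 genes, or 94.2%. They were 4.82% of OPCs (1.33% to 11.9%). The replication genes Mcm2, Mcm3 and Pcna, outside the 17, had 0 of their 8, 6 and 14 UMIs in these cells. Mcm5, also outside the 17, had 1 of its 4 UMIs there. Among the 2770 other cells, 1 cell, labelled MFOL2, had 5 or more of the 17 genes. After thinning to 2000 UMIs the same counts, 4 OPCs and 1 other cell, were obtained.

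The 4 cells had 4438 to 6609 UMIs, compared with a median of 2827 in the other OPCs, of which 6 had more than 4438. All 4 had Pdgfra, at 1280 CPM compared with 1954 CPM in the other 79 OPCs, and 2 had all 5 markers. Mki67 and Ccnb1 had no UMI in the other 79 OPCs. Hmgb2, a chromatin protein of dividing cells, had 70 of its 80 UMIs in them. Ccnd1 was unlike these genes, with 33 of its 268 UMIs in the 4 cells and 965 CPM in the remaining OPCs. Without the 4 cells 5 of the 13 cell cycle genes still passed the filter, Ccnd1, Ccnd2, Ccnd3, Cdk4 and H2afz, and Top2a had a log2 ratio of 3.99 in place of 7.76. Cdkn2c no longer passed 2-fold, at 0.42.

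Immediate early and stress genes were unevenly spread over the OPCs. Their summed level ran from 0 to 36903 CPM, with a median of 2024 CPM. There were 16 OPCs at 10000 CPM or more, 10 TdTom+ and 6 GFP+, which is 19.3% (11.4% to 29.4%), and these held 64.3% of the list's UMIs, with 6 cells within 20% of that limit. Of the mature cells 4.54% reached this level. These were mostly MOL1 cells, of which 56.5% did, and of the 2019 mature cells without MOL1 there were 8 (0.396%). Fos, the best known of these genes, had 155 UMIs in 23 TdTom+ OPCs and 72 UMIs in 13 GFP+ OPCs, and Egr1 had 96 of its 113 UMIs in the 16 cells. Over the whole list, 7 of 10 tested genes were higher in OPCs than in the other cells (31.6% of all genes), 4 of the 10 past the filter in OPCs alone, and the median log2 ratio was 1.62. In the OPCs without the 16 cells Fos was at 312 CPM against 298 CPM in the other labels, and Egr1 at 79.2 CPM against 92.5 CPM. Without these cells, which were picked by this very measure, none of the 10 genes was 2-fold higher in OPCs and the median log2 ratio was 0.08. With the 121 other cells at this level left out as well, 4 of the 10 were higher and 2 lower, near the 31.6% and 16.5% of all genes, and the median was 0.75, so the outcome depended on which cells were left out.

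The structural myelin list made up 0.113% to 1.14% of an OPC's UMIs, apart from 1 GFP+ cell at 4.29%. That cell had 6086 UMIs, where the median GFP+ OPC had 2837. It had all 5 OPC markers with 48 UMIs between them, and 261 of the 1208 myelin UMIs of all OPCs. Whether it held the RNA of more than 1 cell was not tested. Of the 2180 mature cells 8 were at or below its share. Left out, the summed myelin level of OPCs was 3651 CPM in place of 4550 CPM, and the median log2 ratio of the list was -4.53 in place of -4.19. Medians per cell were 0.380% in TdTom+ and 0.282% in GFP+ OPCs.

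**Figure D4:**
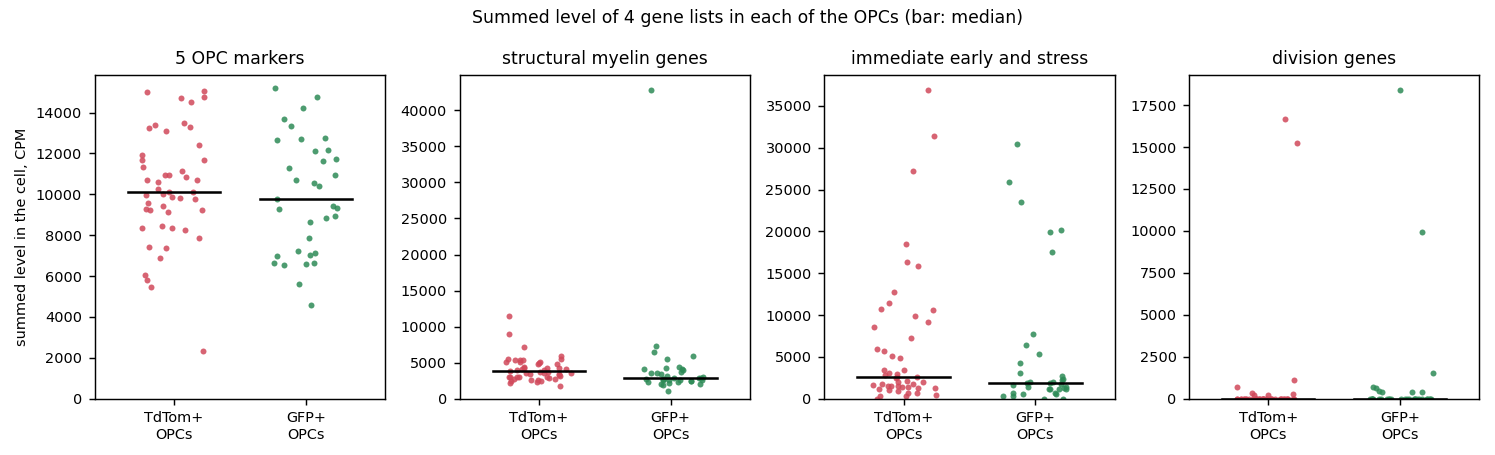
Summed level in CPM of the 5 OPC markers, the structural myelin genes, the immediate early and stress genes and the 17 division genes in each of the 48 TdTom+ and 35 GFP+ OPCs (points), with the median as a bar and a separate linear axis from 0 for each list. The sum of the 5 markers is above 0 in every cell, 1 GFP+ cell stands apart in myelin genes, and 2 cells per library stand apart in division genes.

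Between OPCs of dorsal and ventral origin few genes passed 2-fold. Of the 855 genes whose level averaged 200 CPM or more over the OPCs of both libraries, 7 (0.819%) did so, 3 (0.351%) higher and 4 (0.468%) lower in TdTom+ OPCs, and 735 lay within 0.5 on the log2 scale. The counting interval of the ratio excluded 0 for 26 genes higher (3.04%) and 33 lower (3.86%) in TdTom+ OPCs. The median log2 ratio of TdTom+ over GFP+ OPCs was -0.02. None of the 5 markers passed 2-fold, and the intervals of their ratios all included 0, the widest being that of Cspg4, from -0.44 to 0.87. Of the 16 matrix, 18 precursor transcription factor, 8 channel and 15 adhesion genes that were compared, none passed 2-fold, and of 20 cytoskeletal and immature cell genes 1, Tubb5, did. With 0.819% of all genes past it, such counts do not set these lists apart.

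The genes higher in TdTom+ OPCs were Tubb5, Ptpre and Cd47. Tubb5, a beta tubulin, had 91 UMIs in 29 TdTom+ OPCs (587 CPM) and 27 UMIs in 15 GFP+ OPCs (245 CPM), a log2 ratio of 1.26 (0.63 to 1.94). Of the 91 UMIs, 40 came from the 2 TdTom+ cells with division genes, and without those cells in both libraries the ratio was 0.69. Ptpre, a receptor-type phosphatase, had 52 and 18 UMIs (1.04, interval 0.24 to 1.90), and Cd47, which signals against engulfment by phagocytes, had 49 and 17 UMIs (1.03, interval 0.22 to 1.93). The next in rank, Tshz2 and Ndufb3, had 47 and 17 UMIs each and a ratio of 0.97, so the genes on either side of the 2-fold limit differed by a few UMIs. With a pseudocount of 10 CPM Cd47, at 0.99, and Ptpre were just short of the limit. Without the OPCs with most myelin UMIs Cd47 was at 0.94 and Ptpre at 1.16, and without the OPC over 3000 genes Tubb5 was at 0.67.

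The genes lower in TdTom+ OPCs were Cenpa, Snrpf, Ncl and Sfr1, followed by 2810428I15Rik at -0.89. Cenpa, the centromeric histone, had 21 UMIs in TdTom+ and 36 in GFP+ OPCs, in 3 cells of each, and 55 of these 57 UMIs came from the 4 cells with division genes. Without these cells its ratio was -0.47 in place of -1.26, and without the 1 OPC over 3000 genes it was -3.24. Snrpf, a core protein of spliceosomal snRNPs, had 29 and 47 UMIs (-1.18), Ncl (nucleolin) 22 and 35 (-1.15) and Sfr1 23 and 36 (-1.13). With the 4 cells left out, 3 of the 7 genes still passed 2-fold in the same direction, namely Snrpf, Ncl and Sfr1. Without the OPCs with most myelin UMIs Snrpf, at -0.97, and Sfr1, at -0.98, were no longer past it.

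Sox10, whose regulatory sequence drives the reporter of both sorts, did not pass 2-fold, but the interval of its ratio excluded 0. It had 241 UMIs in TdTom+ OPCs (1554 CPM) and 96 in GFP+ OPCs (869 CPM), a log2 ratio of 0.84 (0.49 to 1.20). The other cells of the libraries differed in the same direction, with 1015 CPM in TdTom+ and 638 CPM in GFP+ cells (0.67). Mbp had 89 UMIs in TdTom+ and 88 in GFP+ OPCs, a log2 ratio of -0.47. The myelin-rich GFP+ cell held 49 of the 88 Mbp UMIs of GFP+ OPCs. Without it they were at 374 CPM and the log2 ratio was 0.62, in the opposite direction.

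**Figure D5:**
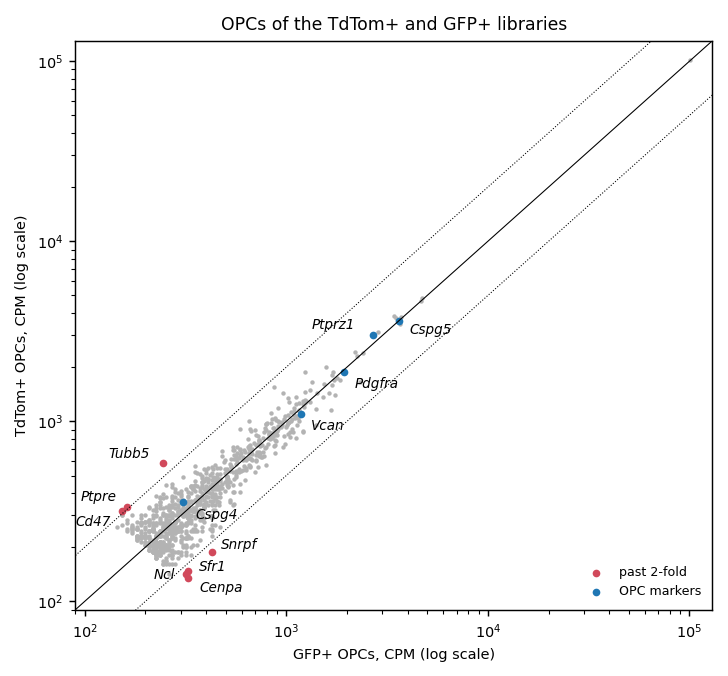
CPM of 855 genes in TdTom+ OPCs (vertical) against GFP+ OPCs (horizontal), both on log scales, with equal levels as the solid line and 2-fold as dotted lines. The 7 genes past 2-fold (red) are at the low end of the levels compared, and the 5 OPC markers (blue) lie between the dotted lines.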

How the data were processed

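Reads were aligned with STAR by the authors. Cell Ranger 2.1.1 and mm10 are named in the submitters' processing notes, and the annotation is not given in the sources used here. As deposited, the matrix is a signal for 11733 genes, a gene's part of all UMIs of the cell. Analysis of counts had been planned, so UMI counts were recovered by multiplying with the cell's total, and 100% of the nonzero products lay within 0.01 of whole numbers. The deposited table of cells gave the library, the labels, and each cell's total count and number of genes, and its other 34 columns were not used.

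Members and gene lists were chosen with earlier results of these data known. UMIs were summed per group and given as CPM, with no replicate and so no test. Genes were compared as log2(CPM + 1), where OPCs or the other cells reached 100 CPM, and between libraries where the mean reached 200 CPM. Alternatives changed the filter, pseudocount, centring, reference cells, depth and cells kept. Shares have exact Clopper-Pearson intervals, levels exact Poisson intervals, and ratios of CPM exact intervals conditional on both counts, at 95%. A 0 was taken to allow 3 UMIs, or 3 cells with a UMI. Named were the 5 markers, the 15 highest and 10 lowest ratios of OPCs, the 5 highest and 5 lowest between libraries, and list members, chosen by level and ratio where not all are given. Some genes that this rule would name are not reported here. The 17 division genes, the 10000 CPM limit for immediate early genes and the myelin-rich cell were chosen after their values were seen, as were A330069E16Rik and Dll3. Cells were thinned with a seed of 1. The calls and intervals were tried on simulated independent Poisson counts, the model that the intervals assume, which leaves out unevenness between cells. Thinning was tried on cells of these data.

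Doublets were not removed. Scrublet marked 8 of 2853 cells (0.280%), too few to be relied on, 2 of them OPCs. The study states an upper limit of 3000 genes, which 38 cells exceeded, among them 1 OPC and 11 of the 19 COP/NFOL cells (57.9%). Software was scanpy 1.11.5 (with Scrublet), matplotlib 3.10.9, scipy 1.17.1, pandas 2.3.3, numpy 2.4.6 and Python 3.11.15.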

Additional observations from a re-analysis of the deposited data

Results flagged for a closer look

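A330069E16Rik was the one gene among the 2537 tested that passed 2-fold in opposite directions in the libraries. Its log2 ratio of OPCs over the other cells was 2.09 among TdTom+ cells and -1.27 among GFP+ cells, from 28 UMIs in 2 TdTom+ OPCs and 1 UMI in 1 GFP+ OPC. The difference between the libraries was not tested.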

How the results depend on the processing

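No paired analysis was possible because each origin had 1 library and no fold change came from a test. With OPC and COP/NFOL cells as the denominator the share of OPCs was 81.4% in both libraries. Without the filter 4153 of 11652 genes were higher in OPCs and 1488 lower, and at 200 CPM 309 and 257 of 1124. Between libraries 3722 of 10862 genes passed 2-fold without the filter and 0 of 232 at 500 CPM. Without the cells with division genes 4 of 861 did so. That choice was made after seeing the data, as was leaving out the cells with high immediate early sums. At 1000 UMIs the shares of OPCs with a UMI were 84.3% for Pdgfra, 24.1% for Cspg4, 68.7% for Vcan and 94.0% for Cspg5. With 2 UMIs asked for they were 85.7% for Pdgfra, 93.5% for Ptprz1, 13.0% for Cspg4 and 63.6% for Vcan, and without thinning Cspg4 was at 61.4%. Each library alone, in place of leaving one out, and the remaining alternatives gave 748 to 878 genes higher and 400 to 428 lower, apart from centring on the median. Over 230 genes and 11 alternatives, filters apart, the log2 ratio of OPCs over the other cells stayed within the reported counting interval in 2108 gene-by-alternative cases and moved further in 421, 100 of them by centring on the median, and Fyn turned to -0.36 with the other labels at equal weight. Levels near 1 UMI, 6.45 CPM in TdTom+ and 9.06 CPM in GFP+ OPCs, limit what could be compared.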

Other observations

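Of 11 tested glutamate and glutathione genes, 3 were higher in OPCs than in the other cells and 5 lower, beside 31.6% and 16.5% of all genes, and relative to the median of all genes 2 were higher and 6 lower. Of the 11, 3 had reached the filter in OPCs alone and 3 in the other cells alone, which fixed their direction, and of the 5 past it in both, 1 was higher and 3 were lower. The higher ones were the glutamate transporters Slc1a2 (516 CPM against 37.4 CPM), Slc1a3 (275 CPM against 117 CPM) and Slc1a1 (151 CPM against 7.56 CPM). Slc1a2 was found in 63 of the 83 OPCs, and neither Slc1a2 nor Slc1a3 had a UMI in COP/NFOL cells. Relative to that median Slc1a3 did not pass 2-fold. Glul, the glutamine synthetase that mature oligodendrocytes also express, was lower in OPCs, at 166 CPM against 1713 CPM, as were Gpx4, at 218 CPM against 933 CPM, and Gstp1, at 56.5 CPM against 494 CPM.

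Genes of MHC class I were low throughout. B2m, the light chain of class I molecules, was the one member past the filter, with 29 UMIs in TdTom+ and 10 in GFP+ OPCs, or 147 CPM in all OPCs against 21.5 CPM in the other cells. H2-D1, a class I heavy chain, had 19 UMIs in TdTom+ and 2 in GFP+ OPCs and none in COP/NFOL cells. The ratio of TdTom+ over GFP+ OPCs was 2.69 for H2-D1 (interval 0.71 to 5.90) and 1.04 for B2m (-0.03 to 2.25), both below the level asked for in the comparison of libraries. After thinning, H2-D1 was detected in 10 of 46 TdTom+ and 2 of 31 GFP+ OPCs, and in 1.56% of MOL5/6 cells.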
